A study of Mus musculus with 27 samples.

Results

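Regenerating muscle of Gsdme KO mice was compared with that of WT mice on D14 after cardiotoxin (CTX) injury, in 3 libraries of each genotype, and the expression of 12878 genes was tested out of 55852 in the table of injured muscle. The members of the comparison were 6 of the 27 libraries of the series, and a gene entered when at least 3 of these 6 libraries reached 1 TPM, a unit that states a gene's share of a library's transcripts after allowing for gene length. The mice were males injected with CTX, a snake venom toxin that kills muscle fibres and spares their stem cells, and the gastrocnemius was harvested. WT mice were C57BL/6J, and KO mice carried a germline deletion of Gsdme in every cell, so that no cell type was singled out by the deletion. The labels name these libraries KO in their titles and give Gsdme knockdown as the genotype, and KO and WT below mean the libraries so labelled. An uninjured group, 3 libraries of contralateral muscle from WT mice, was quantified in a separate table and is given beside the D14 values with no test. The labels do not say whether each library came from its own animal, so that p-values measure the spread between these libraries.

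Gasdermin E, the product of Gsdme, is cut by caspase-3 and other proteases, and its freed end forms pores in the plasma membrane that can turn a dying cell lytic. A muscle that has been destroyed by CTX is cleared by neutrophils and macrophages, is rebuilt by satellite cells, and passes through a phase in which fibro-adipogenic progenitors (FAPs) multiply and then recede. When those progenitors persist, some of them become adipocytes, and fat between the fibres (myosteatosis) replaces part of the muscle. Adipocytes make new fatty acids with Fasn and Scd1, store them as triglyceride in droplets coated by Plin1 and Cidec, and secrete adiponectin and adipsin.

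The targeted gene did not separate the genotypes on D14. Gsdme, on chromosome 6 (GRCm38, 50188888 to 50263862, minus strand), stood at 1.46, 2.21 and 2.26 TPM in the WT libraries and at 1.96, 1.77 and 1.27 TPM in the KO libraries. The groups overlapped, and an exact two-sided permutation test gave p = 0.5, where the smallest p that 3 against 3 allows is 0.1. On D1, D4 and D7 the KO libraries lay below all WT libraries of the same day, at 1.28 to 2.17 against 2.76 to 4.85 TPM on D1, at 1.00 to 1.64 against 2.63 to 3.02 TPM on D4 and at 0.95 to 1.37 against 1.80 to 2.51 TPM on D7. A value summed over the whole gene cannot show which exons the reads came from, so the D14 labels were not checked by Gsdme itself.

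Dynlt1b, a light chain of the dynein motor, separated the genotypes on every day. It lies on chromosome 17 (6430112 to 6436296, plus strand) and stood at 85.0, 93.9 and 77.3 TPM in WT and at 48.4, 49.8 and 48.4 TPM in KO on D14, a mean 1.75 times higher in WT, with a log2 difference of -0.79 (SE 0.20, limma adjusted p = 0.324), and it was called after median-of-ratios scaling (adjusted p = 0.00146) and after quantile normalization (adjusted p = 0.0253). All KO libraries were below all WT libraries on D14, as on D1 (75.1 to 91.0 against 133.9 to 185.4 TPM), D4 (60.6 to 123.1 against 207.4 to 267.7 TPM) and D7 (60.4 to 72.1 against 122.4 to 154.8 TPM). The mouse genome holds several near-identical Dynlt1 copies, among which the authors' counting could have split reads. The copy Dynlt1f did not follow, with a difference of 0.04 (95% interval -0.48 to 0.56), which was below 0 when the libraries were rescaled. Nnt, the transhydrogenase of the inner mitochondrial membrane, stood at 37.5, 21.4 and 41.5 TPM in WT and at 20.9, 14.9 and 17.5 TPM in KO, again without overlap. In a list of 7 tested genes, the Dynlt1 copies, Tmem181 and Nnt, 5 differences were negative and 2 positive. Their median was -0.39, against 0.09 over all genes.

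The libraries were alike as a whole. Correlations of log2 levels were 0.983 to 0.986 within and between genotypes, 12329 to 13261 genes reached 1 TPM, the 50 most abundant genes took 55.7% to 61.4% of TPM and mitochondrial transcripts took 14.4% to 18%. Muscle fibre markers (Acta1, Ckm, Myh4, Ttn and Mylpf) summed to 64161 to 76890 TPM, so the labelled tissue was present in each library. The median gene was higher in KO by 0.09 on the log2 scale, so that small positive differences are common and each list below is read against that value.

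At an adjusted p under 0.05, 1 gene was called, Scd1, which is 0.00777% of the genes tested. At an unadjusted p under 0.05, 241 genes were higher in KO (1.87%) and 32 were lower (0.248%), so that 88.3% of these genes were higher in KO. Median-of-ratios scaling changed that split to 200 higher and 140 lower (58.8% higher), and quantile normalization to 175 and 163 (51.8% higher). Libraries did not overlap between genotypes for 981 genes higher in KO (7.62%) and for 117 genes lower in KO (0.909%). Of the 241 genes, 32 belonged to 6 lists of adipocyte and lipid genes that held 89 distinct tested genes. Fitted alone, the 6 D14 libraries gave 434 higher (3.37%) and 61 lower (0.474%). Leaving out KO replicate 2 left 159 genes higher and 50 lower. The count of lower genes was 56 without WT replicate 1, 21 without WT replicate 2 and 60 without WT replicate 3.

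**Figure D1:**
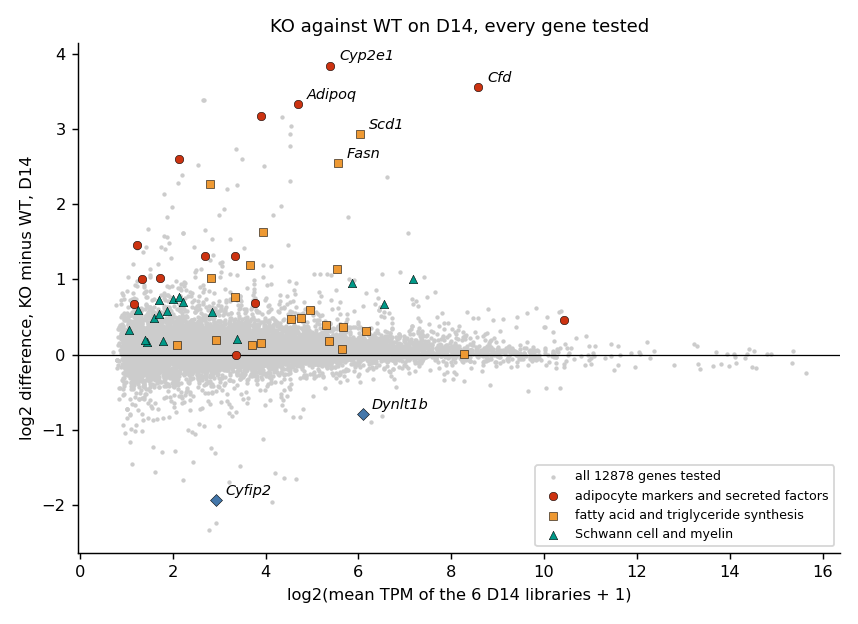
Log2 difference between KO and WT on D14 (y axis) against the log2 of the mean TPM plus 1 over the 6 libraries (x axis) for all 12878 genes tested, with 3 gene lists and 2 lower genes marked. Many adipocyte markers and several enzymes of fatty acid and triglyceride synthesis lie above the grey cloud, led by Cyp2e1 at 3.84, Cfd at 3.56 and Adipoq at 3.33, while Cyfip2 lies at -1.94 and Dynlt1b at -0.79.

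Scd1, the desaturase that makes oleate from stearate, rose in KO. It lies on chromosome 19 (44394455 to 44407879, minus strand) and stood at 10.2, 17.4 and 11.1 TPM in the WT libraries and at 49.1, 171 and 128 TPM in the KO libraries. The lowest KO library was above the highest WT library, the mean was 8.97 times higher in KO (116 ± 61.9 against 12.9 ± 3.93 TPM, SD, n = 3), and the log2 difference was 2.93 (SE 0.46, limma adjusted p = 0.0480). The call was close to the threshold and was lost when any library but KO replicate 1 was left out. The log2 difference itself stayed at 2.56 to 3.45 with 1 library left out. The adjusted p was 0.414 without WT replicate 1, 0.105 without WT replicate 2, 0.457 without WT replicate 3, 0.729 without KO replicate 2 and 0.192 without KO replicate 3, while it was 0.0604 after quantile normalization and 0.127 in a fit of the 6 D14 libraries alone. It was 0.00186 without KO replicate 1, where 21 genes were called, all of them higher in KO and 9 of them in the 6 lipid lists.

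Proximal promoters are shown for the strongest genes that hold the letters CCAAT, the box that the factor NF-Y binds and a known element of lipogenic promoters. Of the 17 genes with the lowest p or the largest positive difference, 10 had an entry in the RefSeq promoter table (GRCm38.p6), and 5 of these held CCAAT, on either strand, in the 250 bases before the start. Over all 32851 promoters of that table the share was 33.8%, and over the 110 promoters of tested genes in the 6 lipid lists it was 35.5%, close to that of all promoters. The 4 printed here run 5′ to 3′ along the gene, with CCAAT or its reverse complement ATTGG in capitals.
Fasn, chr11:120824548-120824797, minus strand: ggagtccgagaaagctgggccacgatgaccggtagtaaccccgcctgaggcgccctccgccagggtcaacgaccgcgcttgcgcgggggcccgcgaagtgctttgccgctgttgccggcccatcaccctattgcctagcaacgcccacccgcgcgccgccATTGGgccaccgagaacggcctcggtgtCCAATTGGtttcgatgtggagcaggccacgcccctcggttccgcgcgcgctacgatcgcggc
Slc25a1, chr16:17928220-17928469, minus strand: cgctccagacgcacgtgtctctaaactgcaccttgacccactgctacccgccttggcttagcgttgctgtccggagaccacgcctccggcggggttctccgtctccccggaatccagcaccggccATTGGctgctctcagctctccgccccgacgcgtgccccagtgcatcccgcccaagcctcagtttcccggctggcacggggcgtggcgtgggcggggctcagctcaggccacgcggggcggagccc
Cyp2e1, chr7:140763569-140763818, plus strand: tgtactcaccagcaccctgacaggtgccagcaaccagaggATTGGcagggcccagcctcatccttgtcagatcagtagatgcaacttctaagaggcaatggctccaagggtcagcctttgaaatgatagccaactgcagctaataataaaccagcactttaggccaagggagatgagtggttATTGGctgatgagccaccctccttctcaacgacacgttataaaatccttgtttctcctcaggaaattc
Adipoq, chr16:23146286-23146535, plus strand: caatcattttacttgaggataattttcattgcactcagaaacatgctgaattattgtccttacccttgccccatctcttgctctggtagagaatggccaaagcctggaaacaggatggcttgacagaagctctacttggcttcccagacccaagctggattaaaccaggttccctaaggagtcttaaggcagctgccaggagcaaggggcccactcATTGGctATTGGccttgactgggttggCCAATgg

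The matches are letters in a window and were not tested for binding. Fasn held 3 of them, Adipoq 3, Cyp2e1 2 and Slc25a1 1, and no match was found in these windows for Mup10, Cfd, Retn, Cidec or Plin1, the last 4 of which had log2 differences of 2.73 to 3.56.

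Enzymes that build fatty acids and triglyceride were higher in KO over much of the pathway. Of 25 listed enzymes 21 were tested, and all 21 differences were above 0, against 74.4% of all genes. Of the 21, 8 passed an unadjusted p under 0.05 in the direction of KO, against 1.87% of all genes. The median difference was 0.47, against 0.09 over all genes, and it was 0.36 after either rescaling of the libraries. Only Scd1 in this list passed the adjusted threshold.

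Fasn, the synthase that assembles palmitate, stood at 9.85, 12.98 and 7.03 TPM in WT and at 21.4, 160.5 and 65.8 TPM in KO, 8.30 times higher on average (log2 difference 2.54, SE 0.50, adjusted p = 0.180). Slc25a1, the carrier that exports mitochondrial citrate as the carbon source, stood at 7.09, 8.25 and 3.62 TPM in WT and at 11.4, 32.6 and 23.6 TPM in KO. For these genes all KO libraries were above all WT libraries, and KO replicate 1 was the lowest of the KO libraries. Acaca, the carboxylase that makes malonyl-CoA, stood at 4.19, 2.94 and 3.26 TPM in WT and at 4.13, 13.5 and 8.78 TPM in KO, so that KO replicate 1 lay within the WT range. Acly, the citrate lyase that supplies acetyl-CoA, also overlapped, at 18.8, 20 and 14.9 against 15.02, 40.3 and 25.4 TPM.

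The enzymes of triglyceride assembly divided in the same manner. Dgat1, which adds the last acyl chain, stood at 6.90, 5.99 and 6.29 TPM in WT and at 8.13, 16.3 and 11.7 TPM in KO without overlap, and Agpat2, an acyltransferase mutated in inherited lipodystrophy, stood at 8.39, 6.89 and 4.09 against 8.15, 23.3 and 19.04 TPM. Pck1, which supplies glycerol 3-phosphate in adipocytes, stood at 0.81, 1.84 and 1.26 TPM in WT and at 8.80, 6.78 and 16.2 TPM in KO, without overlap. Dgat2, the other acyltransferase of the last step, had a difference of 0.40 (95% interval -0.64 to 1.43), an interval too wide to place it with Dgat1 or apart from it. Thrsp, a nuclear protein linked to lipogenesis, stood at 22.8, 29.8 and 25.9 TPM in WT and at 32.6, 101.3 and 60.7 TPM in KO.

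**Figure D2:**
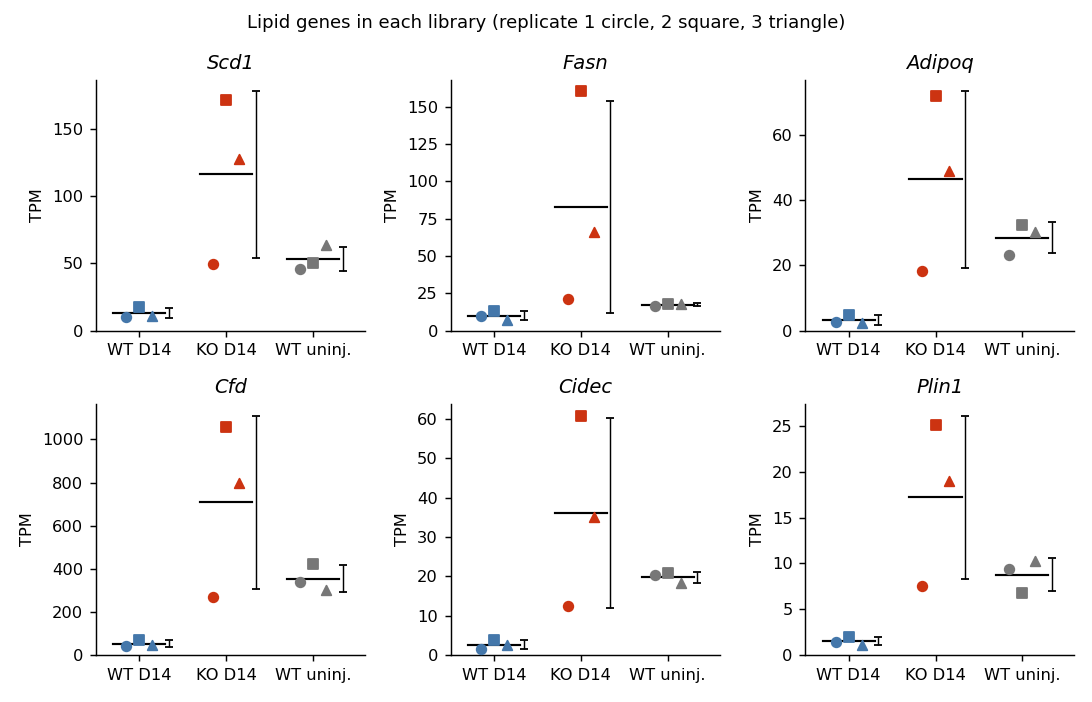
TPM (y axis, linear, from 0) of 6 genes in each library of WT D14, KO D14 and uninjured WT muscle (x axis), with symbols by replicate number, a line at the mean and a bar of 1 SD. In all 6 panels the 3 KO libraries are above the 3 WT D14 libraries, replicate 1 is the lowest KO library, and the uninjured libraries are above the WT D14 libraries.

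Genes that mark the mature adipocyte had the widest differences. Of 20 listed genes, 19 had a higher mean in KO and 13 had no overlap between genotypes, including 3 of the 6 too low to be tested. Among the 14 tested, 10 were higher without overlap, while 7.62% of all tested genes were. Of the 14 tested, 11 passed an unadjusted p under 0.05 and none passed the adjusted threshold, and the median difference was 1.31, against 1.87% and 0.09 over all genes. Of the 14, 4 entered only through KO libraries since no WT library reached 1 TPM for them, and of the other 10 genes 7 passed an unadjusted p under 0.05 and 6 did not overlap, with a median of 1.31.

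Adipoq, the gene for adiponectin on chromosome 16 (23146536 to 23158028, plus strand), stood at 2.65, 4.92 and 2.20 TPM in WT and at 18.2, 72.2 and 48.9 TPM in KO, 14.3 times higher on average (log2 difference 3.33, SE 0.76, adjusted p = 0.220). Cfd, which encodes adipsin (complement factor D), stood at 41.0, 70.0 and 45.9 TPM in WT and at 267.9, 1058 and 797.9 TPM in KO. Neither gene overlapped between genotypes, and in both the order of the KO libraries was replicate 2, then 3, then 1. Retn, the gene for resistin, stood at 1.07, 2.94 and 1.30 TPM in WT and at 10.7, 42.0 and 26.4 TPM in KO. Cyp2e1, a cytochrome P450 that is also abundant in liver, had the largest difference of the named genes, 3.84 (95% interval 1.94 to 5.74), with 2, 6 and 4.18 TPM in WT and 29.4, 119.5 and 85.9 TPM in KO.

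Some members of the list were at low levels and others did not separate. Mrap, an accessory protein of the melanocortin receptor for ACTH, stood at 0.18, 0.14 and 0.21 TPM in WT and at 3.81, 10.01 and 5.95 TPM in KO (adjusted p = 0.113). Slc7a10, an amino acid transporter of white adipocytes, stood at 0.21, 0.22 and 0.20 against 1.18, 3.73 and 2.59 TPM. Mrap and Slc7a10 entered the test only through KO libraries, which fixed the direction of their differences. Lep, the gene for leptin, was too low to be tested, at 0.04, 0.18 and 0.04 TPM in WT and 0.54, 1.59 and 1.26 TPM in KO, still without overlap. Aqp7, a glycerol channel that muscle fibres also express, gave -0.0047 (95% interval -0.60 to 0.59) and turned above 0 when WT replicate 1 or KO replicate 1 was left out. Car3, a carbonic anhydrase abundant both in fat and in slow fibres, overlapped at 1030 to 1172 TPM in WT and 1153 to 2638 TPM in KO.

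The coat of the lipid droplet differed by protein. Cidec, which fuses droplets into the single large droplet of white adipocytes, stood at 1.49, 3.67 and 2.59 TPM in WT and at 12.4, 60.8 and 35.2 TPM in KO. Plin1, the perilipin of adipocyte droplets, stood at 1.41, 1.98 and 1.12 TPM in WT and at 7.50, 25.1 and 18.9 TPM in KO, so that both adipocyte coat genes separated the genotypes. Plin2, found on droplets of most cells, had a difference of 0.35 (95% interval -0.63 to 1.33), Plin5, the perilipin of oxidative muscle, had 0.56 (-0.64 to 1.77), and Plin4 had 0.19 (-0.56 to 0.94), all with overlapping libraries. Of 13 tested droplet genes, 3 were higher in KO at an unadjusted p under 0.05, Bscl2 for seipin being the other one, beside 1.87% of all genes. The list median was 0.35, against 0.09 over all genes, and it was 0.24 after median-of-ratios scaling and 0.26 after quantile normalization.

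Of 19 adipogenic transcription factors, 3 were higher in KO at an unadjusted p under 0.05, where 1.87% of all genes were. The median of the list was 0.10, against 0.09 over all genes. Libraries did not overlap for 4 of the 19 that were higher in KO and for 1 that was lower, beside 7.62% and 0.909% of all genes. Pparg, the master regulator of adipocyte differentiation, stood at 2.64, 4.25 and 3.39 TPM in WT and at 4.91, 7.89 and 6.05 TPM in KO, and Cebpa, its partner in the mature adipocyte, stood at 5.61, 7.55 and 3.85 against 8.09, 16.1 and 15.1 TPM. Cebpd, an early factor of the adipogenic programme that also responds to inflammation and glucocorticoids, stood at 8.63, 8.30 and 6.81 TPM in WT and at 22.9, 15.9 and 12.7 TPM in KO, here with replicate 1 as the highest KO library. These 3 genes did not overlap between genotypes. Srebf1, which drives lipogenic enzymes, had a difference of 0.31 (95% interval -0.09 to 0.71) and Ppargc1a, a coactivator of mitochondrial genes, had -0.50 (-1.33 to 0.32), both with overlap.

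Genes that bring fatty acids into cells or release them from stores were higher by less. All 12 uptake genes had a positive difference with a median of 0.39, and 3 passed an unadjusted p under 0.05, against 74.4% positive and 1.87% passing over all genes. The 3 became 0 after median-of-ratios scaling or without the 50 most abundant genes, 1 after quantile normalization or without WT replicate 2, and 0 without WT replicate 3, KO replicate 2 or KO replicate 3. Fabp4, the fatty acid carrier of adipocytes, macrophages and capillary endothelium, stood at 342.7, 371.6 and 329.0 TPM in WT and at 410.1, 706.2 and 512.5 TPM in KO. Slc27a1, a fatty acid transporter, stood at 40.5, 28.7 and 30.1 against 40.6, 63.0 and 49.7 TPM, so that the lowest KO library exceeded the highest WT library by less than 0.1 TPM. Cd36, the fatty acid translocase, stood at 140.1, 119.2 and 123.5 against 180.4, 190.7 and 168.2 TPM, without overlap and with an interval of -0.04 to 1.02.

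All 10 tested lipolysis genes were likewise positive, with a median of 0.37 and 4 at an unadjusted p under 0.05, beside the same shares of 74.4% and 1.87% over all genes. The 4 became 2 after median-of-ratios scaling, after quantile normalization or without KO replicate 2. Lipe, the hormone-sensitive lipase, was tightly spaced in WT at 14.5, 13.5 and 14.0 TPM and stood at 19.5, 37.2 and 31.6 TPM in KO, 2.10 times higher on average (log2 difference 0.97, SE 0.24, adjusted p = 0.322). Pnpla2, the lipase that takes the first acyl chain, overlapped, with a difference of 0.34 (95% interval -0.30 to 0.97).

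Brown adipocyte genes did not separate. Ucp1, the uncoupling protein that defines brown fat, was listed at 0 in 5 libraries and at 0.25 TPM in KO replicate 3, and none of 8 tested genes of that list passed an unadjusted p under 0.05, nor did any separate the genotypes. For fatty acid oxidation, the use of fat as fuel in muscle, 25 of 26 differences were positive with a median of 0.27. Over all genes 74.4% were positive and the median was 0.09. Only Acot2 (0.64) and Ehhadh (0.50) of the 26 passed an unadjusted p under 0.05, where 1.87% of all genes were higher at that p. Cpt1b, the gate for fatty acids into muscle mitochondria, had a difference of 0.21 (95% interval -0.62 to 1.04).

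**Figure D3:**
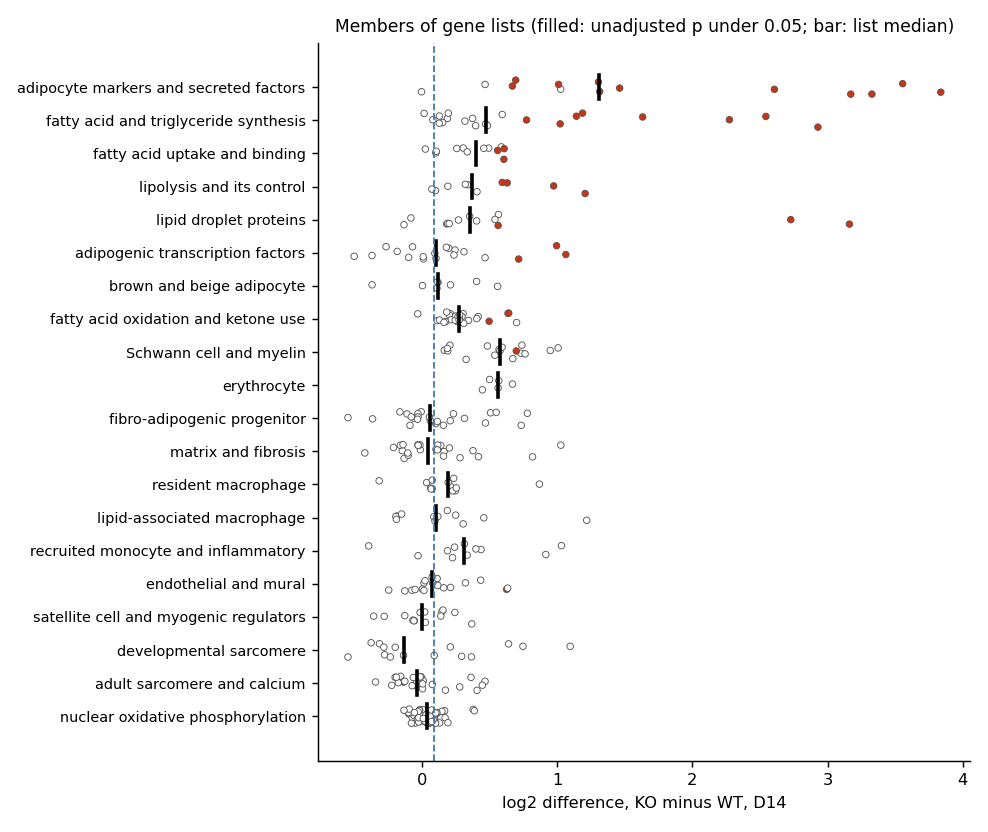
Log2 difference between KO and WT on D14 (x axis) of each tested member of 20 gene lists (y axis), filled where the unadjusted p was under 0.05, with a bar at the list median and a dashed line at the median of all genes, 0.09. Filled points are most frequent in the adipocyte list (11 of 14), then in the lipolysis list (4 of 10) and the synthesis list (8 of 21). Over all genes, 1.87% were higher and 0.248% lower in KO at that p. The medians of the FAP and matrix lists, 0.06 and 0.04, lie near the dashed line.

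Urinary proteins and acute-phase proteins also appeared among the most different genes. The 5 tested Mup genes, major urinary proteins of the lipocalin family that carry small lipophilic ligands, were all higher in KO without overlap, with differences of 1.83 to 2.93, where 7.62% of all genes did so. Mup22 stood at 2.06, 5.32 and 3.95 TPM in WT and at 13.6, 44.3 and 63.6 TPM in KO, and Mup11 was listed at 0, 0.82 and 0 TPM in WT and stood at 2.70, 3.55 and 8.09 TPM in KO. Mup11 and Mup10 entered the test only through KO libraries, which fixed the direction of their differences. Mup genes are near-identical copies on chromosome 4, so that reads of any of them may have been divided among the others. Hp, the gene for haptoglobin, stood at 2.72, 7.61 and 4.82 TPM in WT and at 31.0, 34.9 and 51.4 TPM in KO, and Orm1, the gene for orosomucoid, at 0.51, 1.08 and 0.15 against 3.62, 15.7 and 7.94 TPM. Alb, the defining liver transcript, was at 0.62 to 2.07 TPM over the 6 libraries and the sum of liver markers did not separate the genotypes, at 2.41 to 5.88 TPM in WT and 2.99 to 3.43 TPM in KO. Tmem45b, a membrane protein, stood at 0.29, 0.31 and 0.48 against 2.61, 8.79 and 9.10 TPM (limma adjusted p = 0.113), and it too entered the test only through KO libraries. Cdo1, a cysteine dioxygenase abundant in fat and liver, stood at 1.33, 2.25 and 1.70 against 5.94, 32.0 and 18.8 TPM.

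The KO libraries differed among themselves in one order. Replicate 1 was the lowest KO library for 11 of 14 adipocyte genes and 18 of 21 synthesis genes, against 49.1% of all genes, and replicate 2 was the highest for 11 and 17 of them, against 51.9% of all genes. Summed adipocyte markers (Adipoq, Plin1, Cidec, Lep and Adig) were 12.5, 14.0 and 10.4 TPM in WT and 47.8, 176.2 and 118.8 TPM in KO, without overlap (exact permutation p = 0.1, the smallest that 3 against 3 allows). In bulk tissue, more adipocytes and more RNA for these genes in each adipocyte cannot be told apart.

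Nerve genes followed the same order, while slow fibre and erythrocyte genes did not. All 17 tested Schwann cell and myelin genes, which mark nerve, had a positive difference (74.4% of all genes did), all 17 were lowest in KO replicate 1 and highest in KO replicate 2 among the KO libraries, and 1 of them, Drp2, passed an unadjusted p under 0.05. Prx, the gene for periaxin of myelinating Schwann cells, stood at 4.82, 5.42 and 3.16 TPM in WT and at 2.79, 11.55 and 9.67 TPM in KO, so that replicate 1 lay below the WT range and replicates 2 and 3 above it. The list median of 0.58 was 1.00 without KO replicate 1, the lowest KO library for all 17 genes. There 7 of the 17 were higher at an unadjusted p under 0.05, as were 320 of all 12878 genes. Without KO replicate 2, the highest KO library for all 17, the median was 0.32 and none passed. Slow fibre genes ran the other way, a set chosen after its values were seen (Myh7, Myl2, Myl3, Tnni1, Tnnt1, Tnnc1 and Atp2a2): they summed to 5185 TPM in KO replicate 1, 1189 and 1550 TPM in KO replicates 2 and 3 and 1664 to 2758 TPM in WT. Erythrocyte markers summed to 1155 to 1350 TPM in WT and 1372 to 2324 TPM in KO (exact permutation p = 0.1), with the highest value in replicate 3. The part that nerve, fibre type or blood in the piece of muscle had in the adipocyte differences was not tested. In KO replicate 1, summed adipocyte markers were 47.8 TPM, above the highest WT value of 14.0 TPM, while Prx was below its lowest WT value.

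**Figure D4:**
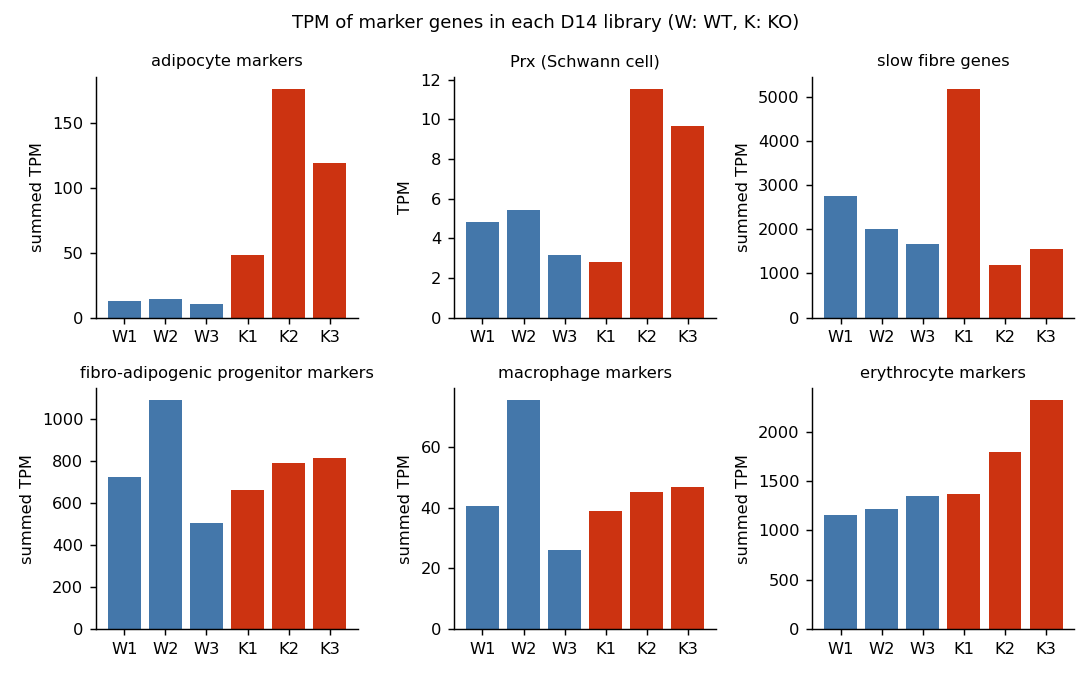
Summed TPM (y axis, linear, from 0) of marker genes for 4 cell types and of slow fibre genes, and TPM of the Schwann cell gene Prx, in each D14 library (x axis, W1 to W3 for WT and K1 to K3 for KO). Adipocyte markers are above the WT range in all 3 KO libraries and Prx in K2 and K3 (11.55 and 9.67 TPM), slow fibre genes peak in K1 at 5185 TPM, and FAP and macrophage markers overlap.

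Genes of FAPs, the cells from which muscle fat can arise, gave no call. FAP markers (Pdgfra, Dpp4, Pi16, Lum and Dcn) summed to 507.3 to 1093 TPM in WT and 662.5 to 816.1 TPM in KO, and Pdgfra, the receptor that defines them, had a difference of -0.06 (95% interval -0.78 to 0.65) whose sign changed without WT replicate 2 or KO replicate 1. None of 24 genes in the FAP list passed an unadjusted p under 0.05 and the median was 0.06. Col1a1, the main fibrillar collagen, stood at 300.2, 439.0 and 85.2 TPM in WT and at 230.9, 274.6 and 319.4 TPM in KO, with the WT libraries spread around the KO libraries. Of 24 matrix genes none passed, with a median of 0.04.

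No macrophage gene passed an unadjusted p under 0.05. Macrophage markers (Adgre1, Csf1r, Fcgr1, Cd68 and Lyve1) summed to 40.6, 75.6 and 26.0 TPM in WT and 38.9, 45.2 and 46.9 TPM in KO. The 13 tested genes of resident macrophages had a median of 0.19, and Lyve1, a marker of resident macrophages, stood at 3.70, 12.6 and 5.4 against 8.17, 8.38 and 6.92 TPM. Cd163, a scavenger receptor of these cells, had a difference of 0.21 (95% interval -0.44 to 0.86). Among 12 tested genes of lipid-laden macrophages, Trem2 had -0.19 (-1.82 to 1.44), and Spp1, the gene for osteopontin, stood at 3.81, 5.90 and 2.17 TPM in WT and 6.55, 13.1 and 11.4 TPM in KO without overlap but with an interval of -0.71 to 3.15. The 11 tested genes of recruited monocytes gave no call, and the inflammatory cytokine genes Il1b, Il6 and Tnf were at 0.32 TPM or less in the 6 libraries.

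Muscle genes showed no difference that this comparison could resolve. None of 14 satellite cell and myogenic genes, 15 developmental sarcomere genes and 28 adult sarcomere genes passed an unadjusted p under 0.05, with medians of 0.0020, -0.14 and -0.04. Pax7, which marks satellite cells, stood at 1.30, 1.36 and 0.78 TPM in WT and 0.77, 1.19 and 1.21 TPM in KO. Myod1, the factor that commits them to muscle, had a difference of -0.28 (95% interval -1.24 to 0.68). Myh3, the embryonic myosin of new fibres, was down to 0.52 to 3.52 TPM in WT and 0.42 to 1.88 TPM in KO, and Myh4, the fast adult myosin, stood at 4590 to 5576 TPM in WT and 4208 to 5712 TPM in KO. The 80 nuclear genes of oxidative phosphorylation had a median of 0.04 and none passed.

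The 32 genes lower in KO at an unadjusted p under 0.05 were fewer than those higher, and none was called. Cyfip2, a subunit of the complex that links Rac to actin branching, lies on chromosome 11 (46193850 to 46312859, minus strand) and stood at 10.8, 14.5 and 8.41 TPM in WT and at 2.91, 1.77 and 1.81 TPM in KO, 5.18 times higher on average in WT (log2 difference -1.94, SE 0.42, adjusted p = 0.198). The uninjured libraries held 0.53, 0.23 and 0.34 TPM, so that KO lay between WT D14 and uninjured muscle. Tcf15, a helix-loop-helix factor of muscle capillaries, stood at 25.8, 27.7 and 23.5 TPM in WT and 13.3, 19.7 and 13.1 TPM in KO. Cntfr, the receptor for ciliary neurotrophic factor, stood at 8.30, 15.5 and 12.3 against 5.80, 6.77 and 6.95 TPM, and Efna1, an ephrin of endothelium, at 14.1, 12.3 and 14.7 against 6.77, 9.79 and 10.4 TPM. The other genes named for the size of a negative difference without overlap were Kcnq1, Nr6a1, Cyp2c23, Vps45, Inpp5d, Zfp938, Dancr, Frmd8os and Arhgef37, with differences of -0.94 to -0.45 and adjusted p-values that missed the threshold.

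Uninjured muscle held more adipocyte transcript than WT muscle on D14 did. Adipocyte markers summed to 59.9, 65.2 and 66.1 TPM in uninjured muscle, above all WT D14 libraries and within the range of the KO D14 libraries. For 10 of 14 tested adipocyte genes all uninjured libraries were above all WT D14 libraries. Adipoq was at 23.1, 32.4 and 30.3 TPM in uninjured muscle and Scd1 at 45.8, 50.5 and 63.2 TPM, while Fasn, at 16.4, 18 and 17.6 TPM, was below all KO libraries. The uninjured libraries were quantified in another table and, by the study's methods, sequenced in another batch, so batch and injury cannot be told apart here.

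The median difference of the adipocyte genes was larger in value on D14 than on the earlier days, but no gene passed the test of that change. Summed adipocyte markers overlapped on D1, at 4.44 to 46.8 TPM in KO and 2.21 to 37.4 TPM in WT, and on D4, at 44.4 to 132.6 against 17.3 to 77.8 TPM. On D7 they did not overlap, at 24.2 to 33.5 TPM in KO and 13.9 to 20.1 TPM in WT, and the ratio of the means was smaller than on D14. Scd1 separated the genotypes on D4 as well, at 61.1 to 106.0 TPM in KO and 22.3 to 60.2 TPM in WT, and overlapped on D1 and D7. Adipoq separated them on D7 as well, at 10.9 to 16.1 TPM in KO and 7.41 to 10.1 TPM in WT, as did Cfd, Cidec and Plin1. These 4 genes overlapped on D1 and D4. The D14 effect minus the mean effect of D1, D4 and D7 was tested for every gene, and none passed an adjusted p under 0.05 with limma (lowest 0.666), while 515 genes (4.00%) were larger on D14 and 18 (0.140%) smaller at an unadjusted p under 0.05. Scd1 had a difference between days of 2.32 (adjusted p = 0.666), with KO minus WT of 0.49 on D1, 1.15 on D4 and 0.17 on D7, and Cyfip2 had -1.92. The median differences of the adipocyte list were 0.35, 0.60 and 0.26 on D1, D4 and D7 against 1.31 on D14. The members were kept by their D14 levels, 4 of them through the KO libraries alone, which favours D14 in this comparison, and over the other 10 the values were 0.35, 0.96 and 0.33 against 1.31. The medians of the synthesis list were 0.13, 0.30 and -0.13 against 0.47. Over all genes tested the medians were 0.08, -0.27 and -0.19 on D1, D4 and D7 against 0.09 on D14. Read against these, the synthesis list stood further above all genes on D4 than on D14. The other 10 adipocyte members stood about as far above all genes on D4 as on D14. The test of the change between days made no allowance for this shift, which the counts of 515 and 18 genes also carry. Dynlt1b, lower in KO on all 4 days, had a difference between days of 0.25.

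**Figure D5:**
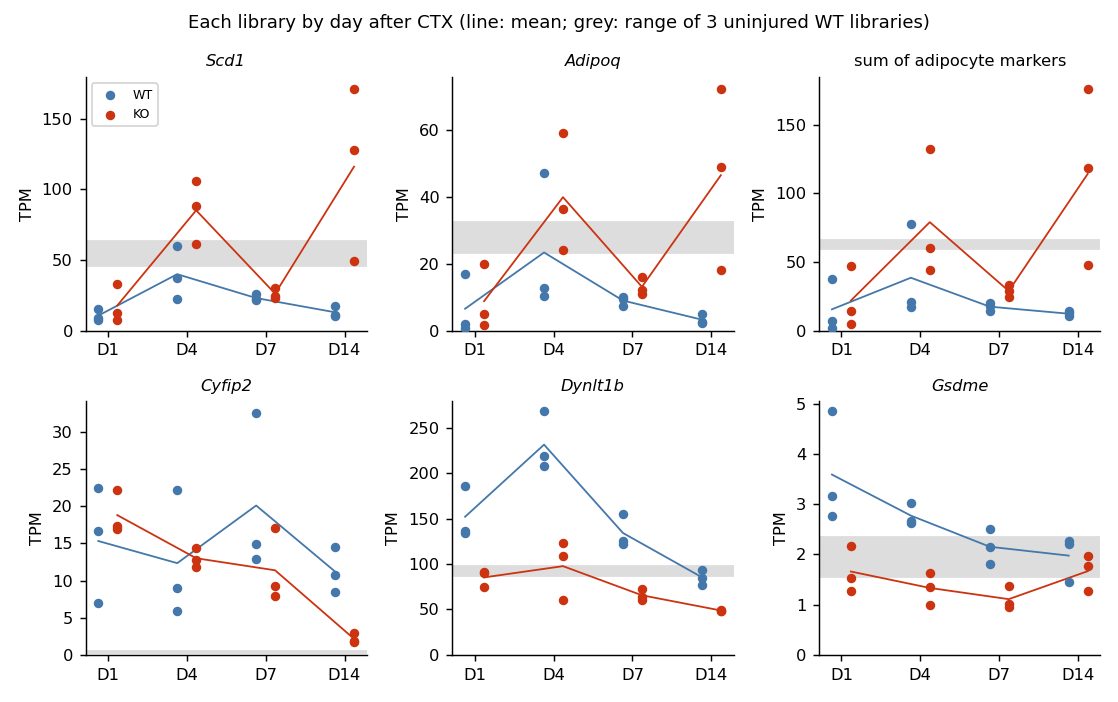
TPM (y axis, linear, from 0) of 5 genes and of summed adipocyte markers in each injured library by day after CTX (x axis, D1 to D14, not to scale), WT in blue and KO in red, lines at the means and a grey band over the range of the 3 uninjured WT libraries. Scd1 separates the genotypes on D4 and D14 and overlaps on D1 and D7, and Adipoq separates on D7 and D14 and overlaps on D1 and D4. Dynlt1b is lower in KO on every day, and Gsdme overlaps on D14 only.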

How the data were processed

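RNA was extracted from gastrocnemius muscle with TRIzol, and poly(A) libraries were made with the SMARTER kit and sequenced paired-end on an Illumina HiSeq. The authors deposited TPM per gene in 1 table for the 24 injured libraries and in another for the 3 uninjured libraries, which also holds a second quantification of the WT D1 libraries that no value here uses, in genome build mm10 per the labels. The aligner and counter are not given in the sources used here, and TPM keeps no depth, so the depth behind each value is unknown. Genes with at least 1 TPM in at least 3 of the 6 D14 libraries were kept. Values were taken as log2(TPM + 1), which understates changes of low genes, and fitted with limma 3.58.1 (R 4.3.3) as 8 group means over the 24 libraries, with a trended prior and Benjamini-Hochberg adjustment over all 12878 genes. A second contrast set the D14 effect against the mean of D1, D4 and D7. Single values were compared by exact two-sided permutation. Fold values are ratios of mean TPM, intervals are 95%, and the fit was tested on simulated data.

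Named genes were Gsdme, the 10 genes with the lowest p, the 15 with the largest difference in each direction (proper gene names, no overlap, at least 2 TPM in the higher group) and, of each gene list, the members that define it or differ most. The gene lists, the members and the tests were chosen with earlier results of these data known. Lists carry no test of their own and stand beside the value over all genes. Coordinates are from GENCODE M21 (GRCm38), and promoter sequences from RefSeq. The labels do not say whether libraries of the same replicate number were paired, and they were treated as unpaired. Deviations from the group means of same-numbered libraries correlated at -0.0633, 0.0854 and -0.119, a check that cannot decide it with 3 libraries per genotype. Alternatives changed the pseudocount, the filter, the scaling, the libraries in the fit and their weights. Values of 3 members of the gene lists are not reported here.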

Additional observations from a re-analysis of the deposited data

How the results depend on the processing

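Genes called on D14 (1 in the report) numbered 2 with a pseudocount of 0.1 (Scd1 and Mrap), 2 with median-of-ratios scaling (Scd1 and Dynlt1b), 3 without the 50 most abundant genes (Scd1, Mrap and Dynlt1b), 40 with library quality weights, whose estimation did not reach its tolerance, and 0 with no filter on low values or with a filter of at least 1 TPM in 3 of the 24 libraries, where the adjusted p of Scd1 was 0.107 and 0.0646 with limma. They ranged from 0 to 21 when 1 library was left out. Genes at an unadjusted p under 0.05 were 627 higher and 270 lower with no filter (69.9% higher), 139 and 13 with at least 5 TPM, 434 and 61 in the fit of D14 alone, and 608 and 100 with quality weights. Lower genes were 140 with median-of-ratios scaling, 163 with quantile normalization and 78 without the 50 most abundant genes (75.2% higher). With 1 library left out, higher genes ranged from 159 to 320 and lower genes from 21 to 60, and genes called for a D14 effect that differs from the earlier days ranged from 0 to 5, the 5 without KO replicate 1. The replicate block in the D14 fit gave 7 called genes, 399 higher and 70 lower. The labels do not say that the numbers pair libraries, so this fit was not read further. The median of all genes was -0.011 with median-of-ratios scaling and -0.0098 with quantile normalization, and the adipocyte list median was 2.24 over the 8 members that passed 5 TPM, 1.28 over 16 with the 24-library filter and 1.04 over 20 with no filter. Dynlt1f was -0.073, -0.053 and -0.033 with median-of-ratios scaling, quantile normalization and without the 50 most abundant genes. With 1 library left out, signs changed for Aqp7 (-0.14 to 0.25), Col1a1 (-0.41 to 0.76), Lyve1 (-0.085 to 0.68), Myh2 (-0.061 to 0.89), Myh3 (-0.50 to 0.28), Myh4 (-0.15 to 0.067), Pax7 (-0.19 to 0.047), Pdgfra (-0.29 to 0.16) and Trem2 (-0.78 to 0.30). Of the values of named genes under all alternatives, 1549 kept their direction and side of the threshold, 46 passed it, 9 no longer did and 17 changed sign. The cause of these changes was not tested.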

Other observations

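Of 17 tested circadian genes, Arntl (6.76, 2.79 and 4.25 TPM in WT, 6.32, 6.38 and 6.52 TPM in KO) was higher and Per3 (5.63, 9.54 and 7.11 against 3.82, 7.25 and 4.01 TPM) lower at an unadjusted p under 0.05. The metallothionein gene Mt2, which responds to metals and glucocorticoids, stood at 29.4, 70.0 and 23.4 TPM in WT and 115.4, 52.0 and 65.4 TPM in KO, with its highest value in KO replicate 1. Sgk1, a kinase induced by glucocorticoids and insulin, stood at 90.7, 83.8 and 105.1 against 128.8, 113.2 and 111.0 TPM, without overlap. They were the 2 of 17 tested fuel switch and glucocorticoid response genes at an unadjusted p under 0.05, and of the 17 differences 8 were negative, with a median of 0.05 against 0.09 over all genes. None of 15 tested cholesterol synthesis genes passed an unadjusted p under 0.05, with a median of 0.17, beside the 8 of 21 in fatty acid and triglyceride synthesis.

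Vwf, the von Willebrand factor of endothelium, stood at 12.9, 16.9 and 14.4 TPM in WT and 16.9, 26.7 and 27.3 TPM in KO, and was the only one of 18 endothelial and mural genes at an unadjusted p under 0.05. Proliferation genes were near the lower limit, and 9 of 22 were tested. Of the 9, 2 were higher in KO without overlap, where 7.62% of all tested genes did so. One member of the 9 entered the test only through KO libraries. Of the 13 too low to be tested, 5 were higher in KO without overlap, a count with no share over all genes beside it. Mki67 was among these 5, at 0.13, 0.21 and 0.08 TPM in WT and 0.40, 0.70 and 0.34 TPM in KO. The predicted gene Gm49739 was listed at 0, 0.28 and 0 TPM in WT and stood at 7.01, 13.9 and 11.1 TPM in KO. It was the gene called when the 6 D14 libraries were fitted alone (limma adjusted p = 0.0117), while its adjusted p in the fit of 24 libraries missed the threshold. No WT library reached 1 TPM for Gm49739, so it entered the test only through KO libraries, which fixed the direction of its difference.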
